A study of Mus musculus with 18 samples.

Results

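Ribosome biogenesis genes encode the nucleolar proteins that make ribosomal RNA, trim and modify it, and assemble it into the small and the large ribosomal subunit. The 47 genes described here were chosen by gene symbol from the deposited table of 62197 entries. All 47 were found, and all 47 passed the filter on low counts (10 normalized counts or more in 3 libraries or more). By role they are *Myc*, 3 subunits of RNA polymerase I, 5 proteins of small nucleolar ribonucleoproteins (snoRNPs), 16 of the small-subunit processome, 4 late factors of the small subunit, 14 assembly factors of the large subunit, and 4 abundant nucleolar proteins and regulators. They lie on 17 chromosomes, with 7 on chromosome 11 and 6 on chromosome 1.

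The study asked how squeezing dendritic cells (DCs) under a low roof changes them, and whether the lipid enzyme cPLA2, encoded by *Pla2g4a*, takes part. Mouse bone marrow cells were grown for 10 days with a supernatant that holds granulocyte-macrophage colony stimulating factor, and poly(A) RNA of bulk cultures was sequenced by strand-specific libraries. The 6 groups have 3 libraries each, 18 in all, and the study calls them biological replicates without saying whether they came from separate mice or cultures.

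Nonconfined WT and nonconfined KO cells received no stimulus. Confined WT and confined KO cells were held at a height of 3 µm and collected 4 h later. The LPS groups, also labelled WT and KO, received 100 ng/ml lipopolysaccharide, by the labels for 30 min, were washed, and stayed in the incubator until the following day. KO stands for a conditional deletion: floxed *Pla2g4a* with Cre driven by the *Itgax* (Cd11c) promoter, which is active in DCs, so cells of the culture that do not use this promoter keep the gene. The labels name 2 library kits without saying which library was made with which.

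A growing cell spends much of its energy on ribosomes. RNA polymerase I copies the ribosomal DNA into a long precursor, snoRNPs guide chemical marks on it, the small-subunit processome folds and cuts it, and separate sets of factors finish and export each subunit. The transcription factor MYC raises the transcription of many of these genes in dividing cells. DCs grown from bone marrow still include dividing cells, and DCs that mature after a microbial signal stop dividing.

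Values are normalized counts, that is, gene counts divided by a size factor for each library. Whole reads were recovered from them, and may count both mates of a pair. The depth of the nonconfined WT libraries was 45020354, 39851237 and 34689393 reads, and that of the nonconfined KO libraries 45021696, 37116045 and 36034820. The confined WT libraries held 42049558, 45769637 and 33592725 reads and the confined KO libraries 33672070, 33027230 and 39400286. The libraries labelled LPS WT held 61300021, 52482280 and 52116837 reads, and those labelled LPS KO 45160523, 43169041 and 39609637. Differences are log2 fold changes from limma with their standard errors, fitted over 17875 genes, and a gene is said to have risen or fallen at an adjusted p under 0.05. The p-values measure only the spread between these libraries, which may in part be technical.

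*Pla2g4a* checks the genotype labels. It stood at 697, 686 and 770.4 normalized counts in nonconfined WT and at 548, 542 and 533 in nonconfined KO libraries. Confined WT libraries had 1369, 1430.3 and 1321 and confined KO libraries 923, 871 and 919.5. KO was lower than WT in every library of both pairs of groups, and the transcript was still present in KO. The libraries labelled LPS WT had 1005, 969 and 967 and those labelled LPS KO 1065, 1032 and 1028, so that the lower values carry the WT label.

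The Y-linked gene *Ddx3y*, a mark of male cells, separated the other groups. It stood at 949, 981 and 874 normalized counts in nonconfined KO and at 1036, 920.2 and 948 in confined KO libraries, against at most 3.05 in any nonconfined or confined WT library. *Xist*, an RNA of the inactive X chromosome of female cells, stood at 27953, 33681 and 30681 in nonconfined WT and 22734, 33482 and 29759 in confined WT, and at 12153, 19081 and 14328 in nonconfined KO and 16979.6, 24835 and 20600.0 in confined KO libraries. The KO libraries thus hold both transcripts, and in these 4 groups genotype and the sex of the donors, or a mix of both sexes, cannot be told apart. For *Ddx3y* the libraries labelled LPS WT had 1271, 0 and 662 and those labelled LPS KO 2.12, 1476 and 783. Both labels thus hold a library near 0, one above 1000 and one between them. *Xist* had 26298, 27791 and 27224 under the label WT, with less spread than *Ddx3y*, and 30960.2, 16450.2 and 21654 under the label KO. *Acot1* had 478, 377 and 400 in nonconfined KO and 588, 626 and 589 in confined KO libraries. It had at most 6.76 in any nonconfined or confined WT library. Under the label LPS WT it had 54.9, 0.915 and 33.6, and under the label LPS KO 0, 49.2 and 40.7. The genotype labels of the LPS libraries do not follow the values of *Pla2g4a*, *Ddx3y* and *Acot1*. The LPS response is given over all 6 LPS libraries first, with the values by label after it.

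The cell type label was checked against 13 DC markers, all above the filter. Their summed level was 515454, 490034 and 494441 normalized counts in nonconfined WT, 622211, 582043 and 611374 in nonconfined KO, 491646, 459622 and 471622 in confined WT and 432294, 417692 and 432898 in confined KO libraries. It was 769655, 663367 and 702740 in the libraries labelled LPS WT and 664557, 756108 and 722235 in those labelled LPS KO. *Cd74*, the invariant chain of MHC class II, was the most abundant of them, and no marker was at 0.

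At rest the 47 genes spanned a wide range. Per kb of merged exons (GENCODE vM39, all 47 matched) nonconfined WT libraries had the most of *Nop16*, a large-subunit factor, with 1549 ± 62.9 normalized counts per kb (SD, 3 libraries). *Mybbp1a*, a nucleolar regulator that binds MYB, followed with 1508 ± 19.9, and *Npm1*, nucleophosmin, with 1421 ± 9.88. The lowest were *Utp14a* at 42.3 ± 6.67 and *Utp20* at 27.0 ± 1.04, both of the small-subunit processome, and the median was 355. These 5 genes were picked after their levels were seen. Of the 46 pairs of neighbours in this order, 32 overlapped in their libraries, among them *Nop16* and *Mybbp1a*. By role the median level per kb was 1180 for the abundant nucleolar proteins, 375 for the large-subunit factors, 455 for the snoRNP proteins, 241 for the small-subunit processome, 185 for the late small-subunit factors and 149 for RNA polymerase I. Merged exons join those of every annotated transcript of a gene, used by these cells or not, so the order depends on the annotation. They had 2116 bases for *Nop16* and 5666 for *Npm1*, whose mean normalized counts without this division were 3279 and 8049.

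The first comparison asks how WT cells respond to confinement. Ribosome biogenesis genes were lower after confinement across every role: 40 of the 47 fell, where 28.4% of all genes tested fell. *Polr1c* (-0.01 with equal library totals) and *Rrp1b* rose, 2 of the 47, where 28.2% of all genes rose. The median log2 fold change was -0.56 over the 47 genes and -0.01 over all genes, and the members ranged from -1.80 (*Dkc1*) to 0.34 (*Rrp1b*). In 41 of the 47 every confined library was below every nonconfined one, which held for 32.7% of all genes, and 8 fell with a log2 fold change below -1, against 7.62% of all genes. In bulk RNA, fewer cells of a type and less RNA per cell cannot be told apart.

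*Myc*, the transcription factor at the head of the group, stood at 1797, 1624 and 1728 normalized counts in nonconfined WT and at 579, 527 and 470.2 in confined WT libraries. The groups lay far apart, and the mean was 3.27-fold lower after confinement (log2 fold change -1.71 ± 0.11, adjusted p = 2.5e-11).

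Of the 3 subunits of RNA polymerase I, the 2 largest fell. *Polr1a*, the catalytic subunit, went from 1782, 1803 and 1757 normalized counts to 847, 855 and 794, and *Polr1b*, the second largest, from 667, 581 and 655 to 282, 226 and 275. Neither gene had a confined library within the nonconfined range, and the log2 fold changes were -1.10 ± 0.09, adjusted p = 6.7e-10, and -1.28 ± 0.12, adjusted p = 5.9e-09. *Polr1c*, a subunit that RNA polymerase III shares, stood at 1184, 1215 and 1091 in nonconfined and 1405, 1294 and 1348 in confined libraries. All 3 confined libraries were above the nonconfined ones by a small margin (log2 fold change 0.21 ± 0.07, adjusted p = 0.00972), but the direction turned to -0.01 when all libraries were given equal totals. The call was lost without nonconfined WT replicate 3 (adjusted p = 0.0636), and the count of members that rose was then 1.

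All 5 snoRNP proteins fell. *Dkc1*, dyskerin, the pseudouridine synthase of box H/ACA snoRNPs, had the largest decrease of the 47, from 1625, 1785 and 1738 normalized counts to 489.9, 491 and 499. That is a 3.47-fold difference with no overlap (log2 fold change -1.80 ± 0.13, adjusted p = 1.0e-10). *Nolc1*, a chaperone of snoRNPs, went from 3395, 3522 and 3417 to 1499.7, 1300.0 and 1572, and *Nop56*, a core protein of box C/D snoRNPs, from 3352, 3472 and 3362 to 1585, 1764 and 1706. Both were lower in every confined library, with log2 fold changes of -1.24 ± 0.06, adjusted p = 2.4e-13, and -1.01 ± 0.05, adjusted p = 6.6e-13. *Nop58*, the partner of *Nop56*, went from 2733, 3037 and 3004 to 1858, 1729 and 1709, and *Fbl*, fibrillarin, the methyltransferase of the same particle, from 2460.4, 2446 and 2617 to 1892, 1788 and 1841. These were the smaller decreases of the role, again without overlap (log2 fold change -0.73 ± 0.06, adjusted p = 9.8e-10, and -0.45 ± 0.07, adjusted p = 5.9e-06).

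In the small-subunit processome 12 of 16 genes fell, with a median of -0.37. *Bms1*, a GTPase, had the largest decrease, from 3342, 3033 and 3173 normalized counts to 1724, 1765 and 1625. *Heatr1*, which joins the precursor while it is being transcribed, went from 1116, 1086 and 1043 to 604, 653 and 681. In both genes every confined library was the lower, with log2 fold changes of -0.90 ± 0.07, adjusted p = 1.3e-10, and -0.74 ± 0.11, adjusted p = 9.9e-06. *Utp15*, of the same early complex as *Heatr1*, stood at 860.3, 853 and 861 and 863, 860.1 and 826, with overlapping libraries (log2 fold change -0.01 ± 0.07, adjusted p = 0.876), but passed at -0.24 with equal totals (adjusted p = 0.00217). *Utp6* went from 1980.4, 2006 and 1924 to 1725, 1807 and 1686 and *Nol10* from 851, 812 and 869 to 687, 779 and 758, both small decreases without overlap (log2 fold change -0.18 ± 0.06, adjusted p = 0.00901, and -0.19 ± 0.08, adjusted p = 0.042). The call of *Nol10* was lost without nonconfined WT replicate 1 (adjusted p = 0.0928) or 3 (0.122) and without confined WT replicate 1 (0.187) or 3 (0.0572), and also with TMM scaling (0.0858), with edgeR (0.0899), with no filter (0.0615) and with the replicate number as a block (0.055).

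Among the 4 late factors of the small subunit, *Rrp12*, which takes part in export, went from 1298, 1178 and 1376 normalized counts to 689.9, 686 and 605, and *Tsr1* from 1200.1, 1178 and 1104 to 609.7, 587 and 591. In both every confined library was the lower (log2 fold change -0.96 ± 0.08, adjusted p = 5.5e-10, and -0.96 ± 0.07, adjusted p = 3.1e-10). *Nob1*, the nuclease that makes the end of the small-subunit RNA, stood at 795, 703 and 779 and then 605, 593 and 672, a smaller decrease (log2 fold change -0.28 ± 0.09, adjusted p = 0.0104). *Ltv1* stood at 941, 992 and 1003 and 1069.7, 939 and 1013. Its libraries overlapped, and its log2 fold change of 0.04 ± 0.08, adjusted p = 0.692, became -0.19 with equal library totals.

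Of the 14 large-subunit factors 13 fell. *Rrp15* went from 528, 558 and 543 normalized counts to 283, 249 and 246, the largest decrease of this role. *Wdr12*, which forms a complex with *Pes1* and *Bop1*, went from 1084, 1142 and 1187 to 622, 565 and 592, and *Nol9*, a polynucleotide kinase, from 1031, 1118 and 1148 to 638, 599 and 624. In all 3 the groups were apart (log2 fold change -1.07 ± 0.10, adjusted p = 4.8e-09, for *Rrp15*, -0.94 ± 0.08, adjusted p = 7.6e-10, for *Wdr12*, and -0.82 ± 0.09, adjusted p = 9.4e-08, for *Nol9*). *Rrs1*, which helps bring the small 5S RNA into the subunit, went from 2219, 2171 and 2159.9 to 1839, 1649.8 and 1768, a modest decrease (log2 fold change -0.32 ± 0.06, adjusted p = 1.8e-04). *Rrp1b* went the other way, from 882, 808 and 823 to 1047, 1116 and 1023. Its confined libraries were all higher (log2 fold change 0.34 ± 0.11, adjusted p = 0.00917), and the call was lost with equal totals per library (0.12, adjusted p = 0.387).

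The 4 abundant nucleolar proteins all fell. *Ncl*, nucleolin, went from 6747, 6363 and 6185 normalized counts to 4573, 4133 and 4404 and *Npm1* from 8005, 8029 and 8112 to 6071, 6127 and 5818. *Ddx21*, an RNA helicase, went from 5312, 5573 and 5123 to 3908, 3557 and 3799.9. *Mybbp1a* had 9055, 8819.6 and 8959 and then 5553, 5452 and 5539.9. No confined library reached the nonconfined range in any of the 4, and the log2 fold changes were -0.56 ± 0.05, -0.42 ± 0.05, -0.51 ± 0.05 and -0.70 ± 0.05, with adjusted p-values from 3.0e-11 to 9.9e-07.

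Library totals after scaling differed between groups, with a mean of 34125100 normalized counts in nonconfined WT, 39890269 in confined WT and 48718670 in the libraries labelled LPS WT. Giving all libraries equal totals moved the median over all genes to -0.23 in this comparison, and calls over all genes moved from 5038 higher and 5075 lower to 3578 and 7380. Relative to that median, the members' median was -0.56 with equal totals, -0.55 with size factors and -0.55 with TMM. With equal totals 0 members rose and 44 fell, and with TMM 2 rose and 39 fell.

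**Figure D1:**
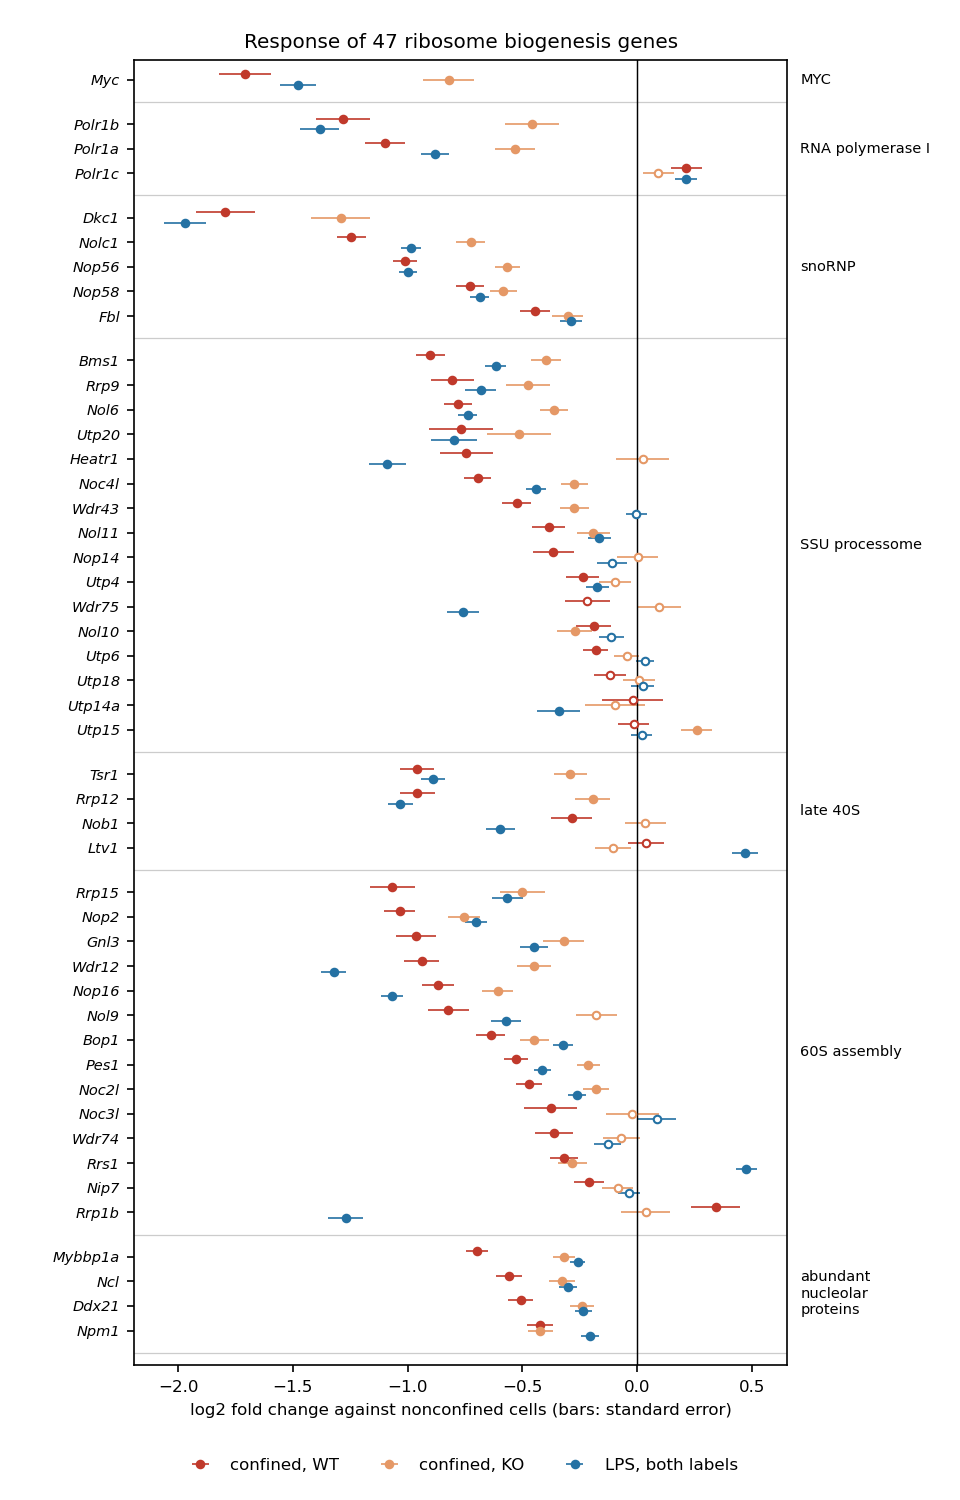
Log2 fold change of each of the 47 genes, grouped by role, for confinement in WT, confinement in KO and LPS over both labels against nonconfined. Points are limma estimates, bars are standard errors, filled points passed an adjusted p under 0.05 and open points did not; most points for confinement in WT (red) lie below 0, with 40 genes lower and 2 higher (0 higher with equal library totals).

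The next comparison asks how KO cells respond. Biogenesis genes were lower after confinement in KO cells too: 31 of the 47 fell, against 23.4% of all genes, and only *Utp15* rose, 1 of the 47 against 22.8%. The median log2 fold change was -0.27 over the members and 0.01 over all genes, with a range from -1.29 to 0.26. Every confined library was below every nonconfined one in 32 genes, against 27.9% of all genes, and 1 gene, *Dkc1*, fell below a log2 fold change of -1, against 5.53%. By role the decreases were *Myc*, 2 RNA polymerase I subunits, 5 snoRNP proteins, 8 of the small-subunit processome, 2 late small-subunit factors, 9 large-subunit factors and 4 abundant nucleolar proteins.

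In KO cells *Myc* went from 1437, 1360.0 and 1444 normalized counts to 880.5, 739 and 785. The groups did not overlap, and the decrease was 1.77-fold (log2 fold change -0.82 ± 0.11, adjusted p = 3.6e-06). *Dkc1* went from 1349, 1336 and 1314 to 618, 468 and 555, and *Polr1b* from 472, 619 and 525 to 402, 368 and 399. Both were lower in every confined library (log2 fold change -1.29 ± 0.13, adjusted p = 4.1e-08, and -0.46 ± 0.12, adjusted p = 0.00312). *Heatr1* stood at 741, 1015 and 872 and 823, 855 and 981, with overlap (log2 fold change 0.02 ± 0.11, adjusted p = 0.88). *Rrp12* went from 1064, 1139 and 1125 to 997, 937 and 975, a small shift (log2 fold change -0.19 ± 0.08, adjusted p = 0.0421). That call was lost without nonconfined KO replicate 2 (adjusted p = 0.107) or 3 (0.104) and without confined KO replicate 1 (0.0527), 2 (0.128) or 3 (0.0791), and with no filter (0.0621). *Utp15*, the increase, went from 771, 776 and 804 to 966, 909 and 943, with all confined libraries above the nonconfined ones (log2 fold change 0.26 ± 0.07, adjusted p = 0.00323).

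The interaction tests whether the 2 responses differ. In 25 of the 47 genes the response of KO cells was more positive than that of WT cells, against 10.2% of all genes, and in 0 it was more negative by limma, against 15.6%. A more positive response can come from a lower nonconfined level in KO, a higher confined level in KO, or both. Mean *Ncl* was 6432 in nonconfined WT and 5430 in nonconfined KO, and 4370 and 4337 after confinement. Mean *Myc* was 1716 and 1414, and 525 and 801 after confinement. At an unadjusted p under 0.05 the interaction passed in 32 members in either direction, and in 6418 of 17875 genes. With edgeR and DESeq2 0 members were more negative too, while limma on the compared groups alone gave 1, *Rrp1b* (-0.31, adjusted p = 0.0299). In the same order 3008, 2852 and 2878 of 17875 genes were more negative. The median difference of the responses was 0.29 over the members and 0.05 over all genes, with 42 genes above 0 and 5 below, from -0.31 (*Rrp1b*) to 0.89 (*Myc*). The count by role was 1 for *Myc*, 2 for RNA polymerase I, 3 for snoRNP proteins, 7 for the small-subunit processome, 2 for late small-subunit factors, 7 for large-subunit factors and 3 for abundant nucleolar proteins.

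For *Myc* the response of KO cells was less negative by 0.89 ± 0.16, adjusted p = 2.0e-04. *Polr1b* differed by 0.83 ± 0.17, adjusted p = 7.1e-04, and *Heatr1* by 0.77 ± 0.16, adjusted p = 0.00108. These 3 genes and *Rrp12* (0.76 ± 0.11, adjusted p = 1.1e-05) had the largest differences. *Tsr1* differed by 0.67 ± 0.10, adjusted p = 3.8e-05, *Nol9* by 0.65 ± 0.13, adjusted p = 6.0e-04, and *Rrp15* by 0.57 ± 0.14, adjusted p = 0.00356. The large subunit of the polymerase, *Polr1a*, differed by 0.57 ± 0.12, adjusted p = 0.00163. *Nolc1*, *Bms1*, *Wdr12* and *Nop56* differed by 0.52 ± 0.09, 0.50 ± 0.09, 0.49 ± 0.11 and 0.45 ± 0.08, and *Mybbp1a* and *Ddx21* by 0.38 ± 0.07 and 0.27 ± 0.08. *Npm1* had a log2 fold change of -0.42 in WT and -0.42 in KO (interaction 0.00 ± 0.08, adjusted p = 0.997).

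On leaving out any 1 of the 12 libraries of this test the count of 25 fell to between 19 and 24. The calls of 6 genes, *Dkc1*, *Utp15*, *Ncl*, *Nop2*, *Nop14* and *Wdr43*, were lost without some library, and 4 others gained a call. *Dkc1* (0.50 ± 0.18, adjusted p = 0.046) lost its call on leaving out any library of the 4 groups except confined KO replicate 2 (0.0194), with adjusted p from 0.0545 to 0.127. *Utp15* (0.28 ± 0.10, adjusted p = 0.038) lost it on leaving out any library except nonconfined KO replicate 3 and confined KO replicate 2, with adjusted p from 0.052 to 0.0843. *Ncl* (0.23 ± 0.08, adjusted p = 0.0326) lost it without nonconfined WT replicates 1 (0.0941) or 2 (0.0502), nonconfined KO replicates 1 (0.0586) or 3 (0.0585), confined WT replicates 2 (0.0952) or 3 (0.0506), or confined KO replicate 1 (0.103). *Nop14*, *Wdr43* and *Nop2* lost theirs without 10, 8 and 7 of the 12 libraries, with adjusted p up to 0.108, 0.139 and 0.112. With TMM scaling all 6 were lost (adjusted p = 0.0666 for *Dkc1*, 0.0759 for *Utp15* and 0.0746 for *Ncl*), and with edgeR all but *Dkc1* (0.0756 for *Utp15* and 0.0743 for *Ncl*). All 6 were lost with no filter, and with the replicate number as a block *Dkc1* (0.0639), *Utp15* (0.0535) and *Wdr43* (0.0594) were lost. *Nob1* (0.32 ± 0.13, adjusted p = 0.0714) gained a call without nonconfined KO replicate 1 (adjusted p = 0.0423) or confined WT replicate 3 (0.0495). It also passed with the compared groups alone (adjusted p = 0.0297) and with equal totals (0.51, adjusted p = 0.00247). Equal library totals made the all-gene median 0.24 and 40 members were more positive, and calls over all genes moved from 1823 and 2796 to 4741 and 1962. Relative to the all-gene median the members' median was 0.25 with equal totals and 0.24 with size factors and with TMM. Under TMM 19 members were called more positive, and 1514 of 17875 genes.

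Confined KO cells were then compared directly with confined WT cells. Of the 47 genes 26 were higher in KO, against 18.8% of all genes, and 3 were lower, against 20.6%. The median was 0.23 over the members and 0.04 over all genes. *Myc* was 1.52-fold higher (log2 fold change 0.61 ± 0.11, adjusted p = 1.6e-04), with every KO library above every WT library. *Polr1b* and *Rrp12* were higher by 0.58 ± 0.12 and 0.56 ± 0.08. The 3 lower genes were *Polr1c* (-0.22 ± 0.07, adjusted p = 0.011), *Npm1* (-0.19 ± 0.05, adjusted p = 0.00885) and *Rrp1b* (-0.72 ± 0.11, adjusted p = 1.2e-05). The call of *Polr1c* was lost without confined WT replicate 1 (adjusted p = 0.0527), and with equal totals those of *Polr1c* (-0.07, adjusted p = 0.404) and *Npm1* (-0.03, adjusted p = 0.662) were lost. Under equal totals 38 members were higher and 1 lower, the all-gene median was 0.19, and all-gene calls moved from 3356 and 3682 to 6001 and 2604.

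A further comparison asks how the genotypes differ before confinement. Of the 47 genes 0 were higher in nonconfined KO than in nonconfined WT by limma, edgeR and DESeq2, against 4.78% of all genes, and 11 were lower, against 4.11%. At an unadjusted p under 0.05, 20 members differed, and 4005 of 17875 genes. The median was -0.13 over the members, from -0.42 to 0.15. All 4 abundant nucleolar proteins were lower: the log2 fold changes were -0.24 ± 0.05, adjusted p = 0.00806, for *Ncl*, -0.23 ± 0.05, adjusted p = 0.0102, for *Ddx21*, -0.19 ± 0.05, adjusted p = 0.0341, for *Npm1* and -0.18 ± 0.05, adjusted p = 0.0162, for *Mybbp1a*. Each of these calls was lost without some library: *Ncl* without nonconfined WT replicate 1 (adjusted p = 0.0501), *Ddx21* without nonconfined WT replicate 2 (0.065) or nonconfined KO replicate 1 (0.0558) or 3 (0.0518), *Mybbp1a* without nonconfined WT replicate 1 (0.0598) or 3 (0.0579) or nonconfined KO replicate 1 (0.082) or 3 (0.0621), and *Npm1* without any library except nonconfined KO replicate 1, with adjusted p up to 0.137. *Npm1* also lost it with edgeR (0.0506), no filter (0.0627), the compared groups alone (0.0956) and the replicate block (0.0537). *Rrp1b* had the largest difference, with 882, 808 and 823 normalized counts in WT and 600.2, 661 and 620.1 in KO, all KO libraries lower (log2 fold change -0.42 ± 0.11, adjusted p = 0.0178), a call lost without nonconfined WT replicate 1 (adjusted p = 0.0762) or 3 (0.051) or nonconfined KO replicate 1 (0.0825) or 3 (0.0627). *Myc* stood at 1797, 1624 and 1728 and 1437, 1360.0 and 1444, all KO libraries lower, without passing the test (-0.28 ± 0.11, adjusted p = 0.137), though it passed with the compared groups alone (0.0206). The count of 11 fell to 4 without nonconfined WT replicate 1, 2 or 3 and to 2 without nonconfined KO replicate 1 or 3. In the same order, lower calls over all genes were 382, 346 and 336, and 281 and 349. At equal totals the all-gene median was -0.03 and all-gene calls moved from 854 and 734 to 757 and 1045.

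The next comparison asks what LPS does to these genes on the following day. Over all 6 LPS libraries against all 6 nonconfined libraries, 35 of the 47 genes fell, against 34.3% of all genes, and 3 rose, *Polr1c*, *Ltv1* and *Rrs1* (all 3 below 0 with equal library totals), against 37.2%. The median log2 fold change was -0.44 over the members and 0.02 over all genes, from -1.97 (*Dkc1*) to 0.48 (*Rrs1*). Every LPS library was below every nonconfined one in 30 genes, against 24.2% of all genes, and 8 fell below a log2 fold change of -1, against 13.4%.

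After LPS *Myc* stood at 493, 629.7 and 578 normalized counts in the libraries labelled WT and 664, 457 and 553 in those labelled KO. All 6 were below every nonconfined library (log2 fold change -1.48 ± 0.08, adjusted p = 2.5e-13). *Polr1b* had 199, 229.7 and 247 and 206, 247 and 211, and *Polr1a* had 997, 838 and 949 and 849.6, 919.9 and 824. Both were lower in every library (-1.38 ± 0.08, adjusted p = 1.9e-12, and -0.88 ± 0.06, adjusted p = 3.0e-11). *Polr1c* had 1295, 1274 and 1319.8 and 1268, 1259.8 and 1387 and was higher in every library (log2 fold change 0.21 ± 0.05, adjusted p = 4.1e-04), but turned to -0.28 with equal totals.

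All 5 snoRNP proteins fell after LPS. *Dkc1* had 324, 468 and 418 normalized counts in the libraries labelled WT and 457, 306 and 368 in those labelled KO, all 6 below every nonconfined library (log2 fold change -1.97 ± 0.09, adjusted p = 1.7e-14). *Nop56*, *Nolc1*, *Nop58* and *Fbl* had log2 fold changes of -0.998, -0.99, -0.69 and -0.29, with adjusted p-values from 5.4e-16 to 1.1e-05. In the small-subunit processome 10 of 16 fell. *Heatr1* had 547, 409 and 537 and 414, 383 and 468 and was lower in all 6 (-1.09 ± 0.08, adjusted p = 7.3e-11). *Utp6* had 1944, 2030.2 and 1867 and 1833, 2017 and 1859, overlapping the nonconfined range (0.04 ± 0.04, adjusted p = 0.429), and *Utp15* had a log2 fold change of 0.02 ± 0.05, adjusted p = 0.724. Equal library totals turned these 2 to -0.46 and -0.48. *Bms1* fell (-0.62 ± 0.05, adjusted p = 7.8e-11). *Nol10* had a log2 fold change of -0.11 ± 0.05, adjusted p = 0.0707, which passed without the library labelled LPS WT replicate 1 (adjusted p = 0.00963) and with TMM scaling (0.0131). It also passed with edgeR (adjusted p = 0.0148) and with equal totals (-0.61, adjusted p = 1.03e-09).

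In the late small-subunit factors *Rrp12* (-1.03 ± 0.05, adjusted p = 1.5e-13), *Tsr1* (-0.89 ± 0.05, adjusted p = 1.1e-12) and *Nob1* (-0.60 ± 0.06, adjusted p = 2.8e-08) fell. *Ltv1* rose: it had 1523, 1274 and 1343 normalized counts in the libraries labelled WT and 1268, 1602 and 1376 in those labelled KO, all above the nonconfined libraries (log2 fold change 0.47 ± 0.05, adjusted p = 1.1e-07), with -0.03 under equal totals. Of the 14 large-subunit factors 10 fell and *Rrs1* rose. *Wdr12* had 457, 404 and 419 and 404, 471 and 433, all lower (-1.32 ± 0.05, adjusted p = 1.8e-15). *Rrp1b*, which rose on confinement in WT, had 258, 351 and 295 and 342, 257 and 308 after LPS. Every LPS library was lower (-1.27 ± 0.08, adjusted p = 1.5e-12). *Rrs1* had 3282, 2859 and 2813 and 2716, 3061 and 3062 and every LPS library was higher (0.48 ± 0.04, adjusted p = 3.1e-09), with -0.02 under equal totals. *Rrp15* (-0.57 ± 0.07, adjusted p = 1.9e-07) and *Nol9* (-0.57 ± 0.06, adjusted p = 5.9e-08) fell. The 4 abundant nucleolar proteins fell too, with log2 fold changes from -0.30 for *Ncl* to -0.20 for *Npm1*, with *Ddx21* and *Mybbp1a* at -0.23 and -0.26.

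Under equal totals the all-gene median was -0.46 after LPS, calls over all genes moved from 6648 higher and 6126 lower to 3640 and 10160, and 0 members rose while 45 fell. Relative to the all-gene median the members' median was -0.48 with equal totals and -0.46 with size factors and with TMM.

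By label, 34 of the 47 genes fell in the libraries labelled LPS WT against nonconfined WT, where 29.4% of all genes fell, and 3 rose, where 33.4% rose, with a median of -0.55. In the libraries labelled LPS KO against nonconfined KO 32 fell, against 30.1% of all genes, and 3 rose, against 33.4%, with a median of -0.41. Equal totals moved the all-gene calls from 5965 and 5258 to 3182 and 9294 for the first and from 5972 and 5384 to 3271 and 9190 for the second. Under that scaling 0 members rose and 45 fell for either label, with medians of -1.06 for WT and -0.89 for KO. Between the 2 LPS labels limma called 0 of the 47 higher, against 0% of all genes, and 0 lower, against 0%. At an unadjusted p under 0.05 it passed 0 members and 890 of 17875 genes, and edgeR and DESeq2 also called 0 members. With labels that the values of *Pla2g4a*, *Ddx3y* and *Acot1* do not follow, this is no test of the genotype after LPS.

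Confined and LPS-treated cells were also compared directly. Confined cells were collected 4 h later and LPS cells, after a wash, on the following day. Stimulus, time and handling cannot be told apart in these comparisons. Against all 6 LPS libraries confined WT cells had 8 of the 47 genes higher, where 24.5% of all genes were higher, and 24 lower, where 29.8% were lower, with a median of -0.12. Confined KO cells had 21 higher, against 30.3%, and 11 lower, against 32.5%, with a median of 0.06. These 2 fits were chosen after seeing the data, and the planned ones go by label. Confined WT against the libraries labelled LPS WT had 6 of the 47 genes higher, against 21.6% of all genes, and 17 lower, against 27.2%, with a median of -0.12 over the members and -0.02 over all genes. *Rrp1b* was the highest (1.83 ± 0.11, adjusted p = 6.9e-12) and *Rrs1* the lowest (-0.77 ± 0.06, adjusted p = 1.6e-09). Under equal library totals the members' median turned to 0.17, with 24 higher and 1 lower, while the all-gene median was 0.26 and all-gene calls moved from 3864 and 4870 to 7353 and 2455. Relative to the all-gene median the members' median was -0.09 with equal totals and -0.10 with size factors and with TMM. TMM scaling gave 9 higher and 11 lower with a median of -0.05, where all-gene calls were 4581 and 4076. With edgeR 11 were lower, where 4130 of 17875 genes were, with a median of -0.047.

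Confined KO against the libraries labelled LPS KO had 18 of the 47 higher, against 28.1% of all genes, and 10 lower, against 30.6%, with a median of 0.06 over the members. *Rrp1b* (1.10 ± 0.11, adjusted p = 1.3e-08) and *Heatr1* (1.07 ± 0.11, adjusted p = 5.4e-08) were the highest and *Rrs1* (-0.79 ± 0.06, adjusted p = 5.1e-10) the lowest. The count of 10 fell to 6 without the library labelled LPS KO replicate 2 or 3 or confined KO replicate 3 and to 4 without confined KO replicate 2. In the same order, 5217, 5151, 5216 and 5206 of 17875 genes were lower. The median moved between 0.01 without the library labelled LPS KO replicate 1 and 0.11 without replicate 2. When totals were made equal, 43 members were higher and 1 lower, the all-gene median was 0.46 and all-gene calls moved from 5026 and 5475 to 9611 and 2814. Relative to it the members' median was 0.04, against 0.03 with size factors. TMM scaling gave 20 higher and 4 lower with a median of 0.099, where all-gene calls were 5405 and 5141. The comparisons with nonconfined cells share their control libraries.

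Across the 18 libraries the median of the 47 genes, as a log2 difference from the nonconfined WT mean, was near 0 in nonconfined WT (0.01, 0.01 and 0.00) and -0.13, -0.14 and -0.11 in nonconfined KO. Confined WT libraries had -0.54, -0.64 and -0.61 and confined KO libraries -0.40, -0.44 and -0.47. The libraries labelled LPS WT had -0.51, -0.44 and -0.51 and those labelled LPS KO -0.61, -0.42 and -0.49. No confined WT library overlapped a confined KO library. The summed share of the 47 genes was 0.296% of normalized counts in nonconfined WT, 0.263% in nonconfined KO, 0.166% in confined WT, 0.204% in confined KO, and 0.150% and 0.149% under the LPS labels.

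**Figure D2:**
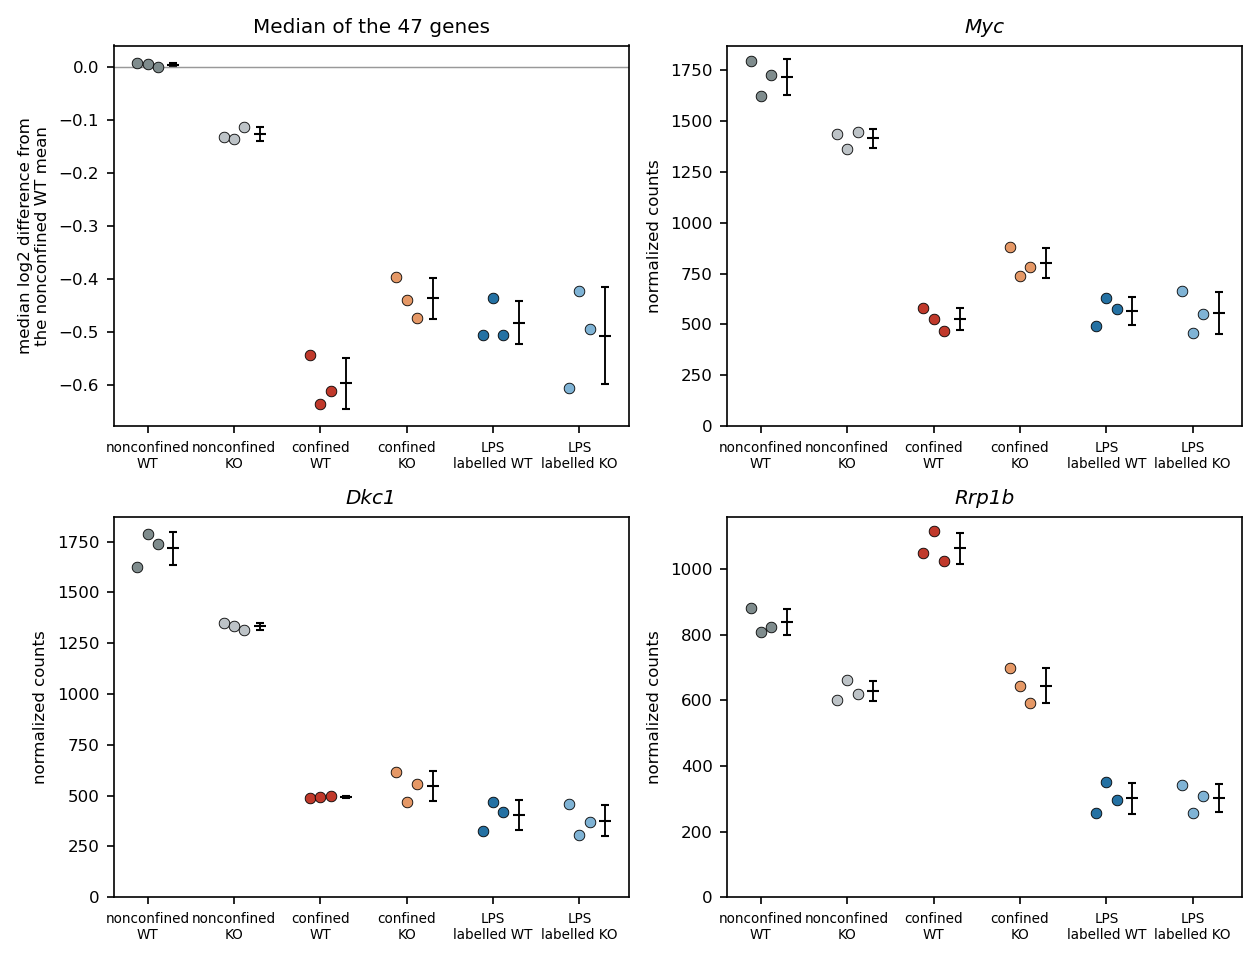
The first panel shows the median of the 47 genes in each library as a log2 difference from the nonconfined WT mean, and the other panels show *Myc*, *Dkc1* and *Rrp1b* in normalized counts. Points are libraries and bars are the mean ± SD of 3 libraries; the confined WT medians lie between -0.64 and -0.54 and the confined KO medians between -0.47 and -0.40.

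Other genes of the pathway were counted in the same comparisons, in which 28.2% of all genes tested rose and 28.4% fell on confinement in WT, and 37.2% rose and 34.3% fell after LPS. Of 12 genes of the MYC network 5 rose and 3 fell on confinement in WT. *Mxi1*, a repressor that competes with MYC for MAX, rose from 2717 ± 19.4 to 13930.0 ± 347 normalized counts (SD, 3 libraries; log2 fold change 2.36 ± 0.12, adjusted p = 1.7e-13), and *Mycl*, a relative of *Myc* used by DCs, fell (-2.42 ± 0.12, adjusted p = 1.9e-13). After LPS 6 rose and 4 fell (median 0.30, but -0.20 with equal totals), with *Mxi1* (1.74 ± 0.08, adjusted p = 2.3e-14) and *Mxd3* (-2.65 ± 0.10, adjusted p = 1.2e-15) at the ends. Of 17 other genes of RNA polymerase I and ribosomal DNA transcription 1 rose and 9 fell on confinement in WT, and 2 rose and 10 fell after LPS. *Taf1b* rose (0.23 ± 0.08, adjusted p = 0.0137), though not without nonconfined WT replicate 1 (adjusted p = 0.0577) or confined WT replicate 2 (0.0977), and the same total gave 0.00. *Cd3eap*, a polymerase subunit, fell on confinement (-1.002 ± 0.07, adjusted p = 1.5e-10) and after LPS (-0.89 ± 0.05, adjusted p = 1.1e-12). *Ttf1*, the terminator factor, rose after LPS (0.36 ± 0.05, adjusted p = 1.2e-06) but had -0.13 with equal totals.

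Among 12 other snoRNP genes 1 rose and 9 fell on confinement in WT, and 2 rose and 9 fell after LPS. *Nufip1*, a snoRNP assembly factor, rose on confinement (1.21 ± 0.07, adjusted p = 4.2e-12) and after LPS (0.36 ± 0.05, adjusted p = 1.7e-06, but -0.14 with equal totals). *Ruvbl1*, an ATPase of the same assembly step, fell on confinement (-0.80 ± 0.07, adjusted p = 1.3e-09), and *Gar1*, a box H/ACA protein, after LPS (-0.78 ± 0.07, adjusted p = 1.5e-09). Of 42 other small-subunit genes 7 rose and 25 fell on confinement in WT, and 15 rose and 21 fell after LPS. *Rcl1* rose in both (1.74 ± 0.08, adjusted p = 1.2e-13 on confinement and 2.22 ± 0.06, adjusted p = 9.6e-19 after LPS), *Bysl* fell on confinement (-0.88 ± 0.10, adjusted p = 9.2e-08) and *Imp3* fell after LPS (-1.04 ± 0.05, adjusted p = 1.3e-14). Of 43 other large-subunit genes 4 rose and 30 fell on confinement, and 10 rose and 25 fell after LPS. *Sbds*, which releases a factor that keeps the subunits apart, rose in both (1.51 ± 0.05, adjusted p = 7.5e-17 and 2.11 ± 0.03, adjusted p = 9.8e-23), *Grwd1* fell on confinement (-1.09 ± 0.15, adjusted p = 1.6e-06) and *Ppan* after LPS (-1.07 ± 0.06, adjusted p = 5.1e-13).

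Of 25 genes of the nucleases that process ribosomal RNA, their subunits and cofactors, 2 rose and 16 fell on confinement in WT, and 6 rose and 15 fell after LPS. *Rpp25*, an RNase P and MRP protein, fell on confinement (-3.05 ± 0.49, adjusted p = 1.5e-05) and after LPS (-3.49 ± 0.34, adjusted p = 7.4e-09). *Pop4*, of the same enzymes, rose (0.26 ± 0.08, adjusted p = 0.0111), though not without nonconfined WT replicate 1 or confined WT replicate 1 (adjusted p = 0.0527 each) or with equal totals (0.03, adjusted p = 0.781). *Mphosph6*, an exosome cofactor, rose after LPS (0.49 ± 0.05, adjusted p = 4.0e-08) and was at -0.0020 with equal totals. Of 34 MYC targets outside the ribosome 8 rose and 21 fell on confinement, and 9 rose and 22 fell after LPS. *Odc1*, the first enzyme of polyamine synthesis, rose on confinement (2.59 ± 0.08, adjusted p = 4.1e-17), *Ccnd2*, a cyclin, rose after LPS (2.54 ± 0.06, adjusted p = 3.4e-19), and *Cad*, which starts pyrimidine synthesis, fell in both (-1.70 ± 0.08, adjusted p = 3.8e-14 and -1.80 ± 0.05, adjusted p = 7.7e-18). Of 13 snoRNA host genes tested, of 15, 4 rose and 6 fell on confinement, and 2 rose and 11 fell after LPS. *Snhg12* rose on confinement (0.45 ± 0.14, adjusted p = 0.00758), a call lost with equal totals (adjusted p = 0.147), and *Snhg15* rose after LPS (0.61 ± 0.06, adjusted p = 3.1e-09), lost likewise (0.0661). *Snhg7* fell in both (-0.88 ± 0.30, adjusted p = 0.0164 and -1.34 ± 0.21, adjusted p = 8.0e-06), the first not without nonconfined WT replicate 2 (adjusted p = 0.0569) or confined WT replicate 3 (0.116).

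Ribosomal protein genes encode the proteins that stay in the finished ribosome. Of 83 cytosolic ribosomal protein genes tested, of 84, 2 rose and 21 fell on confinement in WT, against 28.2% and 28.4% of all genes (median -0.07), and 70 fell in KO, against 23.4% (median -0.27). In the interaction 28 were more negative in KO, against 15.6% of all genes (median -0.18, but 0.01 with equal totals). After LPS 4 rose and 52 fell, against 37.2% and 34.3%. *Rplp2* rose on confinement in WT (0.22 ± 0.07, adjusted p = 0.0154), though not without confined WT replicate 1 (adjusted p = 0.0522), and had -0.01 with equal totals. *Rpl3l*, a muscle form, fell (-0.57 ± 0.22, adjusted p = 0.034), a call lost without nonconfined WT replicate 1 (adjusted p = 0.119) or 3 (0.0753) or confined WT replicate 1 (0.0534) or 2 (0.106), and with no filter (0.0612). After LPS *Rps4l* rose (0.73 ± 0.13, adjusted p = 5.5e-05), but not with equal totals (adjusted p = 0.106) or against nonconfined KO only (0.38, adjusted p = 0.05), and *Rpl12* fell (-0.73 ± 0.05, adjusted p = 2.4e-11). Of 78 mitochondrial ribosomal protein genes 5 rose and 44 fell on confinement in WT, and 11 rose and 46 fell after LPS, with *Mrpl52* (0.50 ± 0.09, adjusted p = 7.2e-05) and *Mrps35* (-0.77 ± 0.10, adjusted p = 9.4e-07) at the ends on confinement and *Mrpl45* (0.92 ± 0.04, adjusted p = 1.2e-14) and *Mrpl42* (-1.17 ± 0.07, adjusted p = 6.6e-13) after LPS.

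Cell division genes were lower as well. Of 30, 29 fell on confinement in WT, against 28.4% of all genes (median -0.90), 27 in KO, against 23.4% (median -0.53), and 29 after LPS, against 34.3% (median -1.23). In the interaction 15 were more positive in KO, against 10.2%, and 0 more negative, against 15.6%. *Mcm2*, a subunit of the replication helicase, fell most in both (-1.62 ± 0.14, adjusted p = 2.2e-09 on confinement in WT and -1.81 ± 0.10, adjusted p = 3.7e-13 after LPS). Their summed level was 125880, 128193 and 128387 normalized counts in nonconfined WT, 103447, 104337 and 102182 in nonconfined KO, 70427, 69751 and 69631 in confined WT and 71442, 71033 and 71301 in confined KO libraries. It was 49459, 61301 and 55385 in the libraries labelled LPS WT and 60816, 48789 and 54737 in those labelled LPS KO. *Top2a* was the most abundant, none was at 0, and their part in the change of the biogenesis genes was not tested.

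Markers of other bone marrow cells were counted beside the same all-gene shares, 28.2% higher and 28.4% lower on confinement in WT and 37.2% and 34.3% after LPS. Of 13 neutrophil and granulocyte progenitor genes 1 rose and 12 fell on confinement in WT, and 5 rose and 8 fell after LPS, with *Lcn2* (0.93 ± 0.07, adjusted p = 7.1e-10) and *Elane* (-2.86 ± 0.21, adjusted p = 1.4e-10) at the ends on confinement and *Lcn2* (1.99 ± 0.05, adjusted p = 9.3e-19) and *Retnlg* (-1.55 ± 0.18, adjusted p = 1.1e-07) after LPS. Their sum was 260268, 265230 and 263724 normalized counts in nonconfined WT, 402999, 361305 and 388703 in nonconfined KO, 188866, 179603 and 177713 in confined WT and 358170, 369607 and 354119 in confined KO libraries, and 403250, 366827 and 380802 and 357905, 410534 and 385002 under the LPS labels WT and KO, with *S100a9* the most abundant. Of 8 eosinophil genes 1 rose and 6 fell on confinement, and 7 fell after LPS, with *Ccr3* (1.14 ± 0.19, adjusted p = 3.6e-05) and *Epx* (-2.57 ± 0.18, adjusted p = 5.1e-11) on confinement and *Prg3* (-0.71 ± 0.09, adjusted p = 4.4e-07) after LPS, a call lost against nonconfined WT only (-0.22, adjusted p = 0.0888). Their sum was 31718, 31516 and 31416 in nonconfined WT, 76986, 71809 and 73778 in nonconfined KO, 9046, 8476 and 8377 in confined WT and 21900, 21454 and 22325 in confined KO, and 44625, 26034 and 35758 and 25977, 44619 and 36313 under the LPS labels, with *Prg2* the most abundant.

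Of 7 mast cell and basophil genes tested, of 8, 2 rose and 5 fell on confinement in WT and after LPS. *Hdc*, which makes histamine, rose in both (4.07 ± 0.09, adjusted p = 2.3e-19 and 3.63 ± 0.06, adjusted p = 5.9e-22) and *Ms4a2*, a chain of the IgE receptor, fell in both (-2.21 ± 0.13, adjusted p = 2.7e-12 and -0.63 ± 0.09, adjusted p = 2.0e-06). *Mcpt4* stayed below 10 in every library. Their sum was 10377, 10483 and 10588 in nonconfined WT, 15537, 15108 and 15149 in nonconfined KO, 16946, 16305 and 16841 in confined WT and 9008, 8702 and 8983 in confined KO, and 19367, 21505 and 20149 and 21870, 19510 and 20720 under the LPS labels, with *Hdc* the most abundant. Of 7 stem and progenitor genes tested, of 8, 1 rose and 5 fell in each. *Kit* rose on confinement (0.37 ± 0.08, adjusted p = 5.9e-04), lost with equal totals (adjusted p = 0.123), and *Sox4* fell in both (-2.37 ± 0.11, adjusted p = 4.4e-14 and -2.62 ± 0.08, adjusted p = 4.3e-18). *Gata2* rose after LPS (0.14 ± 0.06, adjusted p = 0.0343), with -0.36 under equal totals, -0.03 against nonconfined KO only, and a call lost with TMM (0.09, adjusted p = 0.156), with edgeR (0.09, adjusted p = 0.155) and with the compared groups alone (adjusted p = 0.0587), and without nonconfined WT replicate 2 (adjusted p = 0.104) or 3 (0.0520), nonconfined KO replicate 1 (0.0829) or 3 (0.0714), the library labelled LPS WT replicate 1 (0.0850) or the one labelled LPS KO replicate 3 (0.122). Their sum was 4398, 4156 and 4236, 4219, 4472 and 4201, 2416, 2527 and 2596 and 2948, 2870 and 2875 in the same order, and 2477, 2548 and 2517 and 2419, 2396 and 2524 under the LPS labels, with *Kit* the most abundant.

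Of 11 macrophage genes 2 rose and 5 fell on confinement in WT and 3 rose and 6 fell after LPS, with *Marco*, a scavenger receptor, at the top (1.82 ± 0.08, adjusted p = 3.7e-14 and 4.94 ± 0.06, adjusted p = 6.8e-25) and *C1qa* at the bottom (-0.88 ± 0.19, adjusted p = 3.5e-04 and -0.99 ± 0.13, adjusted p = 6.9e-07). Their sum was 68590, 65629 and 66616, 73046, 77561 and 74850, 68261, 65959 and 67404 and 78553, 71592 and 76585, and 76842, 64045 and 69567 and 62945, 74455 and 69272 under the LPS labels, with *Csf1r* the most abundant. Of the 13 DC genes 3 rose and 8 fell on confinement and 10 rose and 2 fell after LPS (median 0.30, but -0.20 with equal totals), with *Cd86*, a costimulatory ligand, at the top (1.39 ± 0.04, adjusted p = 4.9e-17 and 1.78 ± 0.03, adjusted p = 3.0e-22) and *Cd209a*, a lectin of monocyte-derived DCs, at the bottom (-2.62 ± 0.32, adjusted p = 4.3e-07 and -3.95 ± 0.23, adjusted p = 7.8e-13). By the study's methods DCs were taken by how firmly they stick to the plate, a step meant to leave granulocytes and macrophages out. None of the markers of these lists was at 0, and the part of these cells in the change of the biogenesis genes was not tested.

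Of the 47 genes 23 touch another entry of the deposited list, and in 7 pairs that entry was above 0.1 of the member's level. *Dkc1* overlaps *Mpp1* (means of 812 and 7023 normalized counts), *Heatr1* overlaps *Lgals8* (735 and 1494), *Nop56* overlaps *Idh3b* (2195 and 3325), *Bop1* overlaps *Mroh1* (2934 and 6711), *Gnl3* overlaps *Glt8d1* (539 and 483), *Tsr1* overlaps *Srr* (777.6 and 195.2) and *Wdr12* overlaps *Carf* (728 and 99.5). The libraries were strand-specific.

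The promoters of these genes were searched for the sequence that MYC can bind, and movement with *Myc* was not tested. RefSeq promoters (build GRCm38.p6, 300 bases each) were found for 39 of the 47 genes, as 44 entries, and not for *Bop1*, *Fbl*, *Myc*, *Nol6*, *Npm1*, *Rrp12*, *Rrs1* and *Utp6*. The E-box CACGTG, the sequence that MYC with MAX can bind and which reads the same on both strands, was in 10 of the 39 genes (25.6%, exact 95% interval 13.04% to 42.13%), against 8.09% of 27025 genes. Those 27025 are all genes with a promoter entry, expressed in these cells or not, while the 39 were all expressed. The shares are thus not of like genes. The variant CACGCG or CGCGTG was in 10 of the 39, against 10.5%. In a shorter window of 200 bases they were in 10 and 8 of the 39, against 6.19% and 8.26% of all genes. The genes with CACGTG were *Ltv1*, *Mybbp1a*, *Nol11*, *Nop2*, *Pes1*, *Tsr1*, *Utp18*, *Utp20*, *Utp4* and *Wdr43*, and a match is a description. Taking for each the larger change of confinement in WT and LPS, they ranged from -1.04 (*Nop2*) to 0.47 (*Ltv1*), with *Utp18* at -0.12. *Dkc1* (-1.97), *Polr1b* (-1.38) and *Wdr12* (-1.32) fell further after LPS and had no CACGTG. Among the genes with CACGTG, the promoters of the 4 with the largest changes, all decreases, are printed with the motif in capitals: *Nop2* at chr6:125131633-125131932 (plus strand), *Tsr1* at chr11:74897830-74898129 (plus strand), *Utp20* at chr10:88826765-88827064 (minus strand) and *Mybbp1a* at chr11:72441077-72441376 (plus strand).
Nop2: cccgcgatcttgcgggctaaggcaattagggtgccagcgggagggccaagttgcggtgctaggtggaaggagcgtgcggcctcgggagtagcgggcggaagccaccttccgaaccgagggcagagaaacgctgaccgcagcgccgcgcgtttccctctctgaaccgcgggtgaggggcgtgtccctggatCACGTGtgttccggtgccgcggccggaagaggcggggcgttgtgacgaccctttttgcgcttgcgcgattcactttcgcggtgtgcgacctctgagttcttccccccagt
Tsr1: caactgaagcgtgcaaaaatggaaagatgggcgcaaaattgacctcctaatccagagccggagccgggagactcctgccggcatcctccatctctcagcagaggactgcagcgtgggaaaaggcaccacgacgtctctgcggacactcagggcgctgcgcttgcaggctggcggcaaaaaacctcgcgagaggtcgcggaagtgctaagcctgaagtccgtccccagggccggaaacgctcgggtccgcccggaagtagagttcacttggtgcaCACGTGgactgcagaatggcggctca
Utp20: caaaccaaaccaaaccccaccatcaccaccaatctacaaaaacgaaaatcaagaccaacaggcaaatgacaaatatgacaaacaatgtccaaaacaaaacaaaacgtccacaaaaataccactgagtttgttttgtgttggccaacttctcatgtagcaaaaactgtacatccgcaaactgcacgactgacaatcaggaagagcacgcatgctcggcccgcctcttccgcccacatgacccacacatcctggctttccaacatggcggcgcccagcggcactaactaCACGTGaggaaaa
Mybbp1a: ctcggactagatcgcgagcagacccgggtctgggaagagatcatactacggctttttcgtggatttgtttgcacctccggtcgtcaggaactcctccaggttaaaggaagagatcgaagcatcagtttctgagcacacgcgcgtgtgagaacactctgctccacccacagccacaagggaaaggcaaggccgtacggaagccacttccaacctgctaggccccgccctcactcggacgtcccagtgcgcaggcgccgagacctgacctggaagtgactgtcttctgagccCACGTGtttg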

How the data were processed

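The values come from 18 bulk libraries. The deposited table gives a signal for each gene and library, which the authors made by counting reads with featureCounts 1.5.0 after STAR 2.7.5a and dividing by DESeq2 size factors. Whole reads were recovered from these values, 59.6% to 61.8% of the nonzero ones even, so that the depths may count both mates of a pair, which was not tested. All columns were matched to a sample, with 0 unmatched.

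Members and lists were chosen with earlier results of these data known. The 17875 genes that reached 10 normalized counts in 3 or more libraries were fitted with limma 3.58.1 in R 4.3.3 on log2(normalized count + 1), with 6 group means, a trend and Benjamini-Hochberg adjustment, and called at an adjusted p of 0.05. Named members are *Myc*, every member of a role with 5 or fewer, and in larger roles the most positive and most negative for confinement in WT, LPS and the interaction; from each other list the largest increase and decrease are named. The 14 alternatives used pseudocounts of 0.5 and 5, other filters, equal library totals, TMM, edgeR 4.0.16, DESeq2 1.42.0, the compared groups alone, a replicate block, other thresholds, left-out libraries and a shorter promoter window, and 4 more, other LPS references, were chosen after seeing the data. The procedure was tested on simulated data. Levels per kb use GENCODE vM39.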

Additional observations from a re-analysis of the deposited data

Results flagged for a closer look

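In 25 of the 47 genes the response to confinement differed between the genotypes by the interaction test, more positive in KO in all 25, where 10.2% of all genes were more positive and 15.6% more negative. Such a difference does not by itself mean a higher level in confined KO cells. Before confinement 11 of the 47 were lower in KO, against 4.11% of all genes. After it 26 were higher in KO, against 18.8%, and 3 lower, against 20.6%. The count was 40 with equal library totals, where 4741 of 17875 genes were more positive, and 19 with TMM scaling, where 1514 were. With the compared groups alone *Rrp1b* was called more negative (-0.31, adjusted p = 0.0299), as were 2878 of 17875 genes. Among the named genes the differences of the log2 responses, KO minus WT, were 0.89 for *Myc*, 0.57 for *Polr1a*, 0.83 for *Polr1b*, 0.45 for *Nop56*, 0.50 for *Dkc1* and 0.52 for *Nolc1*. They were 0.28 for *Utp15*, 0.77 for *Heatr1*, 0.50 for *Bms1*, 0.76 for *Rrp12* and 0.67 for *Tsr1*. They were 0.49 for *Wdr12*, 0.57 for *Rrp15*, 0.65 for *Nol9*, 0.23 for *Ncl*, 0.27 for *Ddx21* and 0.38 for *Mybbp1a*. The calls of *Dkc1*, *Utp15* and *Ncl* were lost without 11, 10 and 7 of the 12 libraries, with TMM scaling and with no filter. Genotype and the sex of the donors, or a mix of both sexes, cannot be told apart in these libraries.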

How the results depend on the processing

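Of 2073 single-gene results under the alternatives 1867 kept their direction and side of the threshold, 182 were weaker, 12 stronger and 12 reversed. On leaving out 1 library 1496 of 1554 kept both. Of 374 counts and medians 309 stayed close, 64 moved and 1 reversed. With DESeq2 all 173 single-gene results kept both. The causes of the changes below were not tested, and counts are written higher then lower.

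With equal library totals the member counts and medians were 0 higher and -0.78 for confinement in WT, 40 higher and 0.48 for the interaction, 1 lower and 0.38 for confined KO against confined WT, 0 higher and -0.94 for LPS, 0 higher and -1.06 for the label LPS WT, and 0 higher and -0.89 for the label LPS KO. Confined against LPS had 24 higher, 1 lower and a reversed median of 0.17 in WT, and 43 higher, 1 lower and 0.50 in KO. The reversed genes were *Polr1c* (-0.0108 on confinement in WT, -0.28 after LPS), *Ltv1* (-0.19 and -0.0258), *Rplp2* (-0.0090 on confinement), and after LPS *Utp15* (-0.48), *Utp6* (-0.46), *Rrs1* (-0.0199), *Ttf1* (-0.13), *Nufip1* (-0.14), *Mphosph6* (-0.0020) and *Gata2* (-0.36).

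With an absolute log2 fold change above 1 as well, the counts were 0 and 8 for confinement in WT, 0 and 1 in KO, 0 for the interaction, 0 and 0 for confined KO against WT, 0 lower for nonconfined KO against WT, 0 and 8 for LPS, 0 and 10 and 0 and 7 by label, and 1 and 0 and 2 and 0 for confined against LPS in WT and KO. With an unadjusted p of at most 0.05 and a fold change of at least 1.5 they were 0 and 23, 0 and 5, 7 for the interaction, 1 and 1, 0 lower, 0 and 20, 0 and 22, 0 and 18, 1 and 1, and 7 and 1. Under the first of these rules 7.62%, 5.53% and 13.4% of all genes were lower on confinement in WT, in KO and after LPS. For the remaining counts no share of all genes is given, so they cannot be set against other genes.

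With the compared groups alone the interaction had 1 lower, *Rrp1b*, and confined against LPS in KO 6 lower, which was also 6 without a filter. Over all genes the same counts were 2878 and 5252 of 17875, and 5527 of 31495 without a filter. TMM and edgeR each gave a median of -0.46 for the label LPS KO, 11 lower for confined against LPS in WT (medians -0.0452 and -0.047), and 4 lower in KO. With TMM and edgeR 4076 and 4130 of 17875 genes were lower in that comparison in WT, and 5141 and 5124 in KO. Chosen after seeing the data, LPS against nonconfined WT only had a median of -0.53, and against nonconfined KO only -0.37, with *Gata2* reversed (-0.032). *Prg3* lost its call against WT only (-0.22, adjusted p = 0.0888) and *Rps4l* against KO only (0.38, adjusted p = 0.05). The shorter promoter window gave 10 and 8 of 39 members and 6.19% and 8.26% of all genes for the 2 motifs.

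On leaving out each library in turn the members more positive in the interaction ranged from 19 to 24, the members higher on confinement in WT ranged from 1 to 2, those lower in nonconfined KO against WT from 2 to 11, and those lower in confined against LPS in KO from 4 to 9. Over all 17875 genes the same counts ranged from 1511 to 1882, from 4685 to 4823, from 281 to 1124 and from 5151 to 5297. The medians ranged from -0.55 to -0.49 for the label LPS WT, from -0.41 to -0.32 for the label LPS KO, and from 0.0082 to 0.11 for confined against LPS in KO.

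With the replicate number as a block the counts were 2 and 39 for confinement in WT, 1 and 31 in KO, 22 and 0 for the interaction, 25 and 3 for confined KO against WT, 0 and 10 for nonconfined KO against WT, 3 and 35 for LPS, 3 and 34 and 3 and 32 by label, 0 and 0 between the labels, and 5 and 17 and 18 and 8 for confined against LPS. Over all 17875 genes they were, in the same order, 4986 and 5016, 4021 and 4117, 1716 and 2710, and 3255 and 3606. For the rest they were 767 and 617, 6616 and 6102, 5934 and 5207, 5942 and 5322, 0 and 0, 3785 and 4807, and 4990 and 5445. Of 15 pairs of groups 0 had all same-number residual correlations above 0.1, and these ranged from -0.142 to 0.338. The call of *Nol10* on confinement in WT was lost without some single libraries, and *Utp14a* and *Utp20* are the members with the lowest level per kb.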
